A study of Mus musculus with 14 samples.

Results

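Light zone (LZ) germinal centre B cells were compared with dark zone (DZ) ones over all 14 libraries of the series, 7 from each zone. The cells were wild type (WT) or SykY317F. Libraries were assigned by their zone and genotype labels, and genotype entered the comparison as a covariate. The common zone effect is therefore a weighted average over both genotypes, and not only the part that they share. In simulated data, 30 of 100 genes changed 4-fold in WT only passed this comparison. The groups were WT DZ (n = 4), WT LZ (n = 4), SykY317F DZ (n = 3) and SykY317F LZ (n = 3). The mice were C57BL/6 chimeras, 50% WT and 50% SykY317F, immunized with NP-KLH, a hapten coupled to a carrier protein, and popliteal lymph nodes were taken at 14 days. SykY317F is an allele of Syk, a kinase that acts just downstream of the antigen receptor of B cells. Bulk RNA of each sorted population was counted as unique molecular identifiers (UMIs), molecule tags that let PCR copies be removed. Sources used here name neither the markers that gated the zones nor the age of the mice. Whether replicates are separate mice is also not stated in the labels, so p-values measure the spread between these libraries, which may be technical.

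Germinal centres are the sites in lymphoid tissue where B cells diversify their antibodies and are selected for binding to antigen. In the dark zone the cells divide and mutate their antibody genes, and in the light zone they take up antigen, present it on MHC class II and receive help from T cells through CD40. Cells move between the zones repeatedly, and the chemokine receptor Cxcr4 (DZ) and the activation markers Cd83 and Cd86 (LZ) are the surface proteins by which the zones are commonly told apart.

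Depth ran from 149641 to 1767898 UMIs per library. The 3 SykY317F LZ libraries (149641 to 379125 UMIs) and SykY317F DZ replicate 4 gave 9.37 to 15.8 UMIs per 100 reads, against 33.5 to 53.2 in the other 10 libraries. A count of 3 UMIs, taken here as the floor, was 1.73 to 5.76 CPM (UMI counts scaled to library size with TMM factors) in the WT libraries and up to 18.8 CPM in SykY317F LZ replicate 4, so that changes of weakly expressed genes were often not detectable in that group. The 8 B cell markers summed to 19933 to 48628 CPM in every library, and Cd74 alone was at 9964 to 35933 CPM. The 8 tested myeloid markers, Apoe among them, summed to 824 to 2435 CPM. T cell markers (9 of 14 in the table) were not at 0: the 5 that were tested summed to 19.4 to 54.3 CPM in WT DZ, 53.7 to 196 in WT LZ, 85.7 to 229 in SykY317F DZ and 47.8 to 147 in SykY317F LZ.

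Genes that differed between the zones over both genotypes numbered 109 of 7999 tested, which is 1.36% of them. Higher in LZ were 48 (0.6%), among them genes of antigen presentation and T cell help (Cd83, Cd40, Ifi30, H2-DMb2), receptors (Ffar2, S1pr3, Ccr6, Cd72) and the NF-kB subunit gene Nfkb2. Lower in LZ were 61 (0.763%), led by Pafah1b3, Myl4 and Rgcc. Among them were genes of mitosis (Cdc20, Cenpa, Mad2l1, Ccnb2), of DNA repair (Hmces, Msh3) and of germinal centre identity (Bcl6, Pou2af1, Gcsam). The repair and identity lists were lower only in part, with 9 of 16 and 13 of 20 tested members lower. Calls are Benjamini-Hochberg adjusted p under 0.05 in edgeR's quasi-likelihood test, and all fold changes are LZ against DZ on the log2 scale with their SE. At an unadjusted p under 0.05 there were 1078 genes (13.5%), where 400.0 are due by chance. Of the 109, 63 differed by at least 2-fold, 22 higher and 41 lower, and 5 are predicted genes that are not named here. In bulk libraries of this kind, fewer cells of a type and less RNA per cell cannot be told apart.

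The size of these counts depended on the libraries. Those with the fewest UMIs were SykY317F LZ replicates 2 and 4, so leaving out both left replicate 1 alone in that group. Leaving out 1 library gave 23 to 72 higher and 31 to 75 lower genes: 24 and 39 without WT LZ replicate 1, 23 and 31 without WT LZ replicate 2, 24 and 39 without WT DZ replicate 3, 25 and 41 without WT DZ replicate 4, and 28 and 42 without SykY317F DZ replicate 1. Without both libraries with the fewest UMIs there were 27 and 38, and without all 4 libraries of low UMI yield, which leaves 2 SykY317F libraries, both DZ, and so measures zones within WT alone, there were 0 and 4 (an alternative chosen after seeing the data). Each of the 109 genes kept its direction in every alternative in which it was tested.

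Ffar2 (chr7:30818348-30823775; coordinates throughout are GRCm38, the assembly of mm10), a receptor for short-chain fatty acids, led the genes higher in LZ. Its level had a lowest, median and highest value of 6.71, 10.7 and 23.3 CPM in the 7 DZ libraries and of 34.5, 61.4 and 107 CPM in the 7 LZ libraries. Every LZ library lay above every DZ library, and the 3 SykY317F LZ libraries (65.7 to 107 CPM) lay above all 4 WT LZ ones (34.5 to 61.4). The log2 fold change was 2.17 ± 0.31 (adjusted p = 0.000692 in edgeR).

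Cfp (chrX:20925454-20931555) encodes properdin, which stabilises the complement convertase. It was at 28.5, 35.6 and 58.1 CPM (lowest, median and highest) in DZ and at 73.4, 98.9 and 136 CPM in LZ, with no overlap, and its log2 fold change was 1.29 ± 0.22 (edgeR adjusted p = 0.0036). S1pr3 (chr13:51408639-51422797), a receptor for sphingosine 1-phosphate, was at 22.1, 47.2 and 60.5 CPM in DZ and at 79.0, 98.7 and 169 CPM in LZ, again with no overlap (1.22 ± 0.22, adjusted p = 0.00527). Arid3b (chr9:57790353-57836793), a DNA-binding protein, also separated the zones without overlap, at 108 to 189 CPM in DZ and 228 to 382 CPM in LZ.

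Cd83 (chr13:43784775-43803132), which protects surface MHC class II and Cd86 from degradation, ran from 277 to 581 CPM in DZ with a median of 316, and from 406 to 960 CPM in LZ with a median of 729. The overlap came from SykY317F DZ replicate 2 (581 CPM) against WT LZ replicates 1 (406) and 3 (541), and within each genotype the zones did not overlap. Its log2 fold change was 0.99 ± 0.18 (edgeR adjusted p = 0.00539). Cd72 (chr4:43446462-43454628), an inhibitory co-receptor of B cells, ran from 287 to 601 CPM in DZ and from 570 to 1097 CPM in LZ (1.09 ± 0.19, adjusted p = 0.00446). Cd40 (chr2:165055627-165072948), the receptor for T cell help, ran from 151 to 222 CPM in DZ and from 215 to 420 CPM in LZ (0.79 ± 0.16, adjusted p = 0.0118). Cd72 and Cd40 likewise did not overlap within either genotype and did so across genotypes. Cd72 lies over part of Tesk1 on the other strand, and no source used here says whether the authors' counting used strand, so its level is uncertain.

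Rec8 (chr14:55618037-55625395), a cohesin subunit of meiosis, had the largest fitted increase (3.09 ± 0.58, edgeR adjusted p = 0.0073) from few molecules, at 0 to 5 UMIs in each DZ library and 4 to 25 in each LZ library. Ryr1 (chr7:29003344-29125179), a calcium release channel, was at 5.53 to 18.1 CPM in DZ and 12.5 to 84.0 CPM in LZ (1.65 ± 0.32). Its zones overlapped in SykY317F only, where 3 UMIs correspond to as much as 18.8 CPM. The other leading genes higher in LZ were Ddit4, an inhibitor of the growth kinase complex mTORC1, at 1.22 ± 0.24, and Runx3, a transcription factor, at 1.01 ± 0.21. Ubxn11, Snx11, Bre and Syngr2 completed the 15 named for the smallest p, and Ubxn11 overlaps Sh3bgrl3 and Syngr2 a predicted gene.

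Among the genes lower in LZ, Pafah1b3 (chr7:25295049-25297986) had the smallest p. It encodes a catalytic subunit of an enzyme that inactivates platelet-activating factor. Its lowest, median and highest levels were 305, 603 and 1068 CPM in DZ and 135, 156 and 242 CPM in LZ. No LZ library reached the lowest DZ library, SykY317F DZ replicate 2 at 305 CPM, and the next lowest was WT DZ replicate 4 at 542 CPM. The log2 fold change was -1.89 ± 0.21 (edgeR adjusted p = 3.89e-05).

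Myl4 (chr11:104550663-104595753), a myosin light chain better known from heart muscle, was at 175, 295 and 417 CPM in DZ and at 74.6, 83 and 136 CPM in LZ (-1.61 ± 0.19, edgeR adjusted p = 0.000106). Rgcc (chr14:79288756-79301645), a regulator of the cell cycle, was at 65.9, 126 and 163 CPM in DZ and at 0, 31.8 and 40.3 CPM in LZ (-2.12 ± 0.26, adjusted p = 0.000121). Gadd45b (chr10:80930073-80932204), a stress-inducible gene of growth arrest and DNA repair, was at 447, 622 and 840 CPM in DZ and at 163, 324 and 418 CPM in LZ (-1.21 ± 0.16, adjusted p = 0.000205). None of these 3 genes had a library that overlapped between zones. The 2 other members of the Gadd45 family did not pass in edgeR: Gadd45g, also stress-inducible, had a log2 fold change of 1.14 ± 0.31 in the opposite direction (adjusted p = 0.0713) and Gadd45a one of -0.09 ± 0.29. Gadd45g passed in DESeq2's Wald test (adjusted p = 0.0182) and limma voom (0.0415), and in edgeR without WT LZ replicate 3 (0.0487), SykY317F LZ replicate 1 (0.0495) or SykY317F DZ replicate 2 (0.0246).

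Scn11a (chr9:119753759-119825456), a voltage-gated sodium channel known from sensory neurons, had nearly all of its UMIs in DZ. Its UMIs were 9, 20, 24 and 35 in WT DZ and 17, 16 and 12 in SykY317F DZ, against 1, 0, 0 and 1 in WT LZ and 0 in each SykY317F LZ library. Scaled for depth, the 133 UMIs in DZ and 2 in LZ give a ratio of 40.0 (95% counting interval 10.9 to 334, exact binomial, counting error only). Within WT the ratio was 38.0 (10.2 to 319), and within SykY317F the gene was at least 3.12-fold lower in LZ against the floor of 3 UMIs over the group. Scn11a, Pafah1b3 and Rgcc passed in all 26 alternatives.

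Lipc (chr9:70798128-70952226), hepatic lipase, fell from a median of 203 CPM in DZ to 69.1 in LZ (log2 fold change -1.61 ± 0.22), and Smco4 (chr9:15493432-15545260) from 113 to 42.2 CPM (-1.39 ± 0.22). Arl5c (chr11:97989578-97996181), an ARF-like small GTPase, fell from 167 to 76.8 CPM (-1.22 ± 0.20). In these 3 genes too no LZ library reached a DZ library. Csrp2, a LIM domain protein, fell by 0.99 ± 0.18 and Glrx3, a glutaredoxin, by 1.36 ± 0.24 on the log2 scale, and their zones overlapped. Lrrc49 and Guca1b, the latter an activator of guanylate cyclase, completed the 15 named here. Both had 1 UMI in all SykY317F LZ libraries together, against 36 and 56 UMIs in SykY317F DZ, ratios of 7.50 (1.26 to 304) and 11.7 (2.01 to 469) after scaling for depth.

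**Figure D1:**
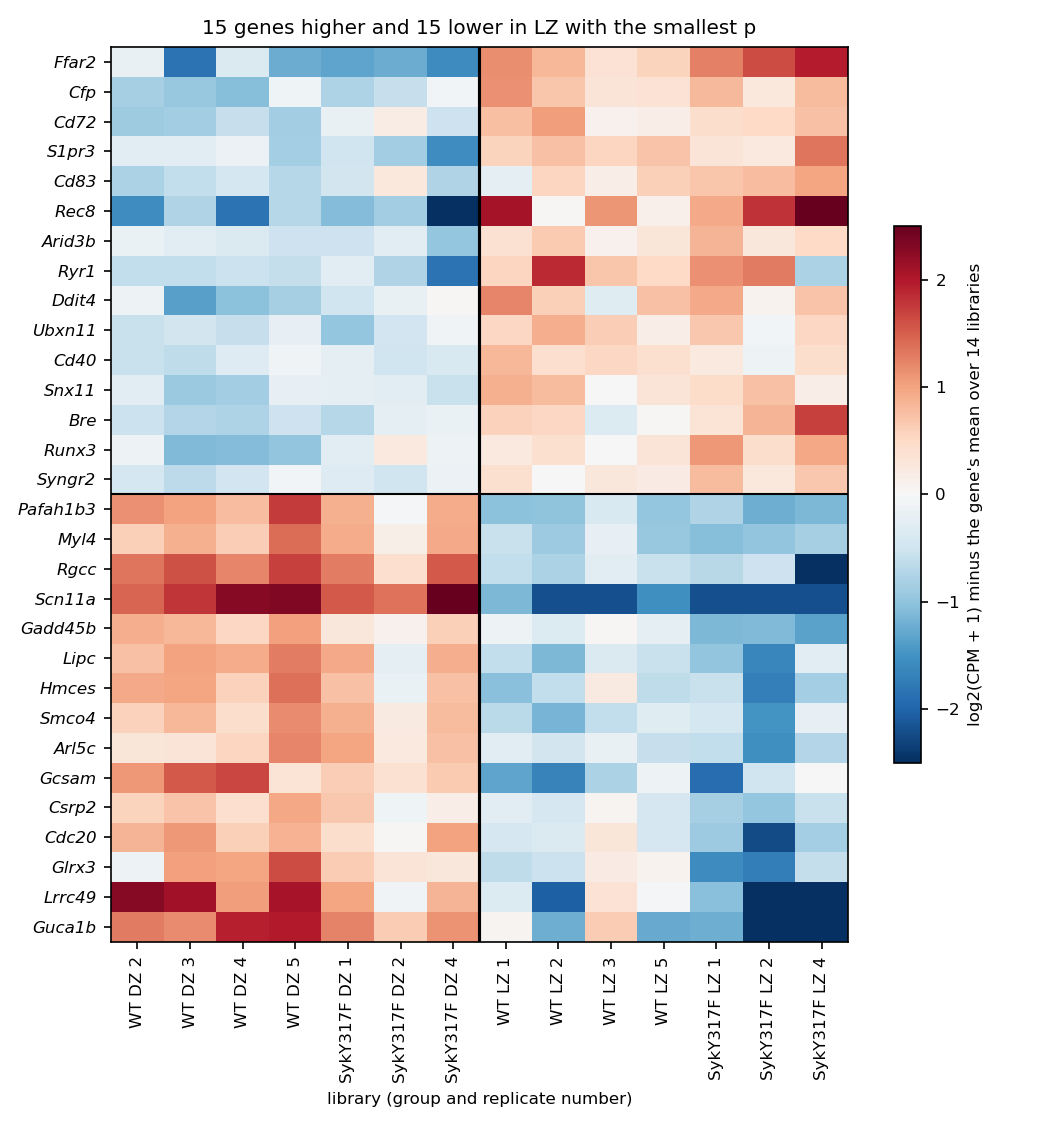
Levels of the 15 genes higher and the 15 lower in LZ with the smallest p (predicted genes left out), one column per library (DZ left of the line, LZ right), one row per gene, as log2(CPM + 1) minus the gene's mean over the 14 libraries; red is above and blue below the mean, and the scale ends at 2.5 either way. The rows were chosen for this contrast; the column of SykY317F DZ replicate 2 is paler than the other DZ columns in most rows of the lower block.

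Single libraries stood nearer the other zone than the rest. Of the 109 genes, 59 had SykY317F DZ replicate 2 as the DZ library nearest to the LZ side, against 2 to 15 genes for each other DZ library. WT LZ replicate 3 was the LZ library nearest to the DZ side for 47 genes, against 4 to 20 for each other LZ library. The T cell marker Thy1 was at 39.7 CPM in SykY317F DZ replicate 2, 13.8 in replicate 1 and 41.5 in replicate 4. Replicate 4 was a library of low UMI yield, and other T cell markers did not all rank these libraries alike. Any part of T cell transcripts in the place of replicate 2 was not tested.

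The zone effect was then read in each genotype separately, the comparison that asks whether WT and SykY317F cells agree. The 109 genes had the same direction in both genotypes without exception. This is in part built into the choice, since a gene passes the common test more readily when both genotypes move together, and 61.3% of all tested genes had the same direction in both. After adjustment 15 genes passed within WT (0.188% of those tested) and 3 within SykY317F (0.0375%). An unadjusted p under 0.05 was reached by 108 of the 109 within WT, where 8.48% of all tested genes reached it, and by 93 within SykY317F, where 10.3% did. Both genotypes reached it in 92 of the 109, 41 higher and 51 lower. Of all 7999 tested genes 176 (2.2%) did so in the same direction, 85 higher (1.06%) and 91 lower (1.14%), and 10 (0.125%) in opposite directions. Within WT and within SykY317F alike, 62 of the 109 had no overlap between zones, as had 106 of all tested genes (1.33%). Between all 7 LZ and all 7 DZ libraries 33 of the 109 had none, as had 47 of all tested genes (0.588%). Leaving out WT LZ replicate 2 or SykY317F DZ replicate 1 lowered the count of 92 to 54, WT DZ replicate 3 to 59, WT DZ replicate 4 to 60, SykY317F LZ replicate 2 to 61, and both libraries with the fewest UMIs to 41.

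Effect sizes of the 109 genes are given as a description, since the common test favours genes with like effects in both genotypes. The 48 genes higher in LZ had a median log2 fold change of 1.0 in WT and 0.97 in SykY317F, and the 61 lower genes -1.17 and -1.25. The effect was larger in SykY317F for 60 genes and larger in WT for 49. Hmces (chr6:87913935-87936629), which binds and shields abasic sites in single-stranded DNA, had log2 fold changes of -1.44 ± 0.29 in WT and -1.43 ± 0.36 in SykY317F. Its levels were 604 to 1053 CPM in WT DZ and 197 to 476 in WT LZ, and 364 to 680 CPM in SykY317F DZ and 124 to 275 in SykY317F LZ. Pou2af1 (chr9:51213708-51240080), a B cell coactivator needed for germinal centres, had -1.05 ± 0.27 and -0.99 ± 0.32. Nfkb2 (chr19:46304320-46312385) had 0.79 ± 0.24 in WT and 0.75 ± 0.29 in SykY317F.

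**Figure D2:**
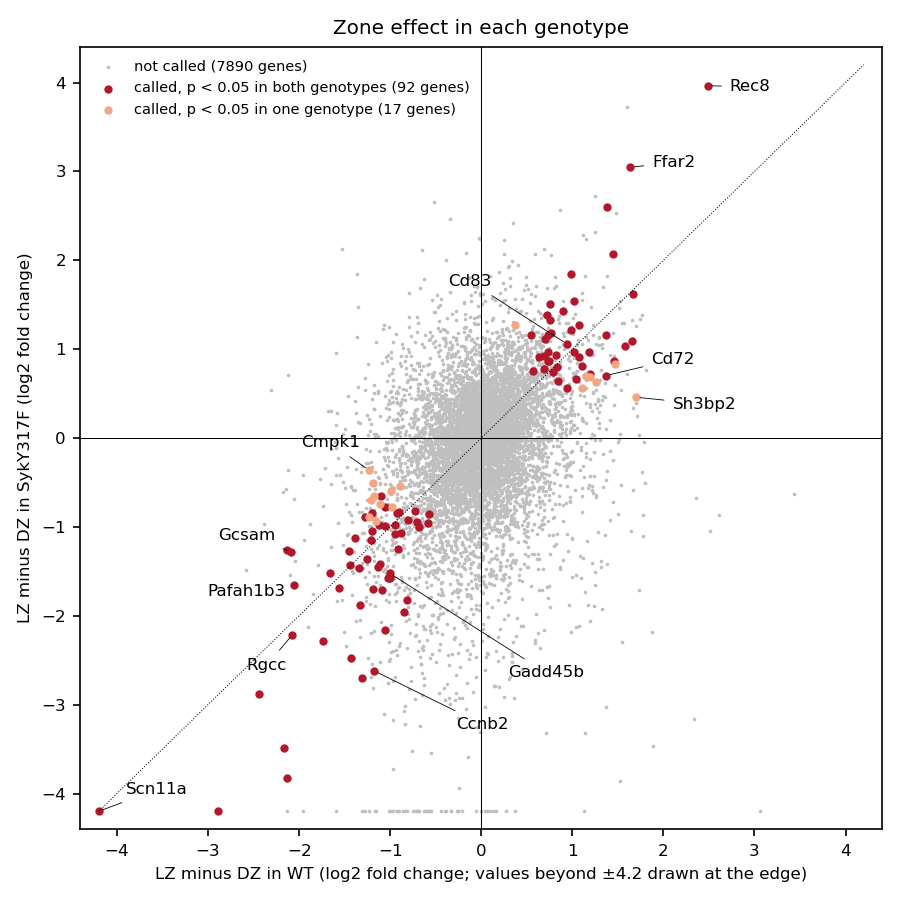
Zone effect in WT (x axis) against SykY317F (y axis) as log2 fold change, LZ minus DZ, one point per tested gene; dark red are the 92 genes called in the common comparison with p under 0.05 in both genotypes, orange the 17 called with p under 0.05 in one, grey the genes not called. All called genes lie at the lower left or upper right; values beyond 4.2 either way are drawn at the edge.

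A stricter test asks each genotype to carry the effect without the other, by taking the larger of the WT and SykY317F p-values and adjusting it over all 7999 genes. No gene passed it (0 by edgeR and 176 at an unadjusted p under 0.05; 5 by DESeq2's Wald test), and the smallest adjusted p was 0.144, shared by Myl4, Gadd45b and Pafah1b3. Ffar2 and Rgcc followed (adjusted p = 0.255), then Arl5c, Lipc, Hmces and Cdc20 (0.538). On the higher side S1pr3 and Cd83 came after Ffar2 (adjusted p = 0.599 and 0.621), and Rec8 and Arid3b completed the first 5. Myl4 had log2 fold changes of -1.57 ± 0.25 in WT and -1.69 ± 0.33 in SykY317F, Gadd45b of -1.01 ± 0.20 and -1.52 ± 0.24, and Pafah1b3 of -2.05 ± 0.27 and -1.65 ± 0.33.

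**Figure D3:**
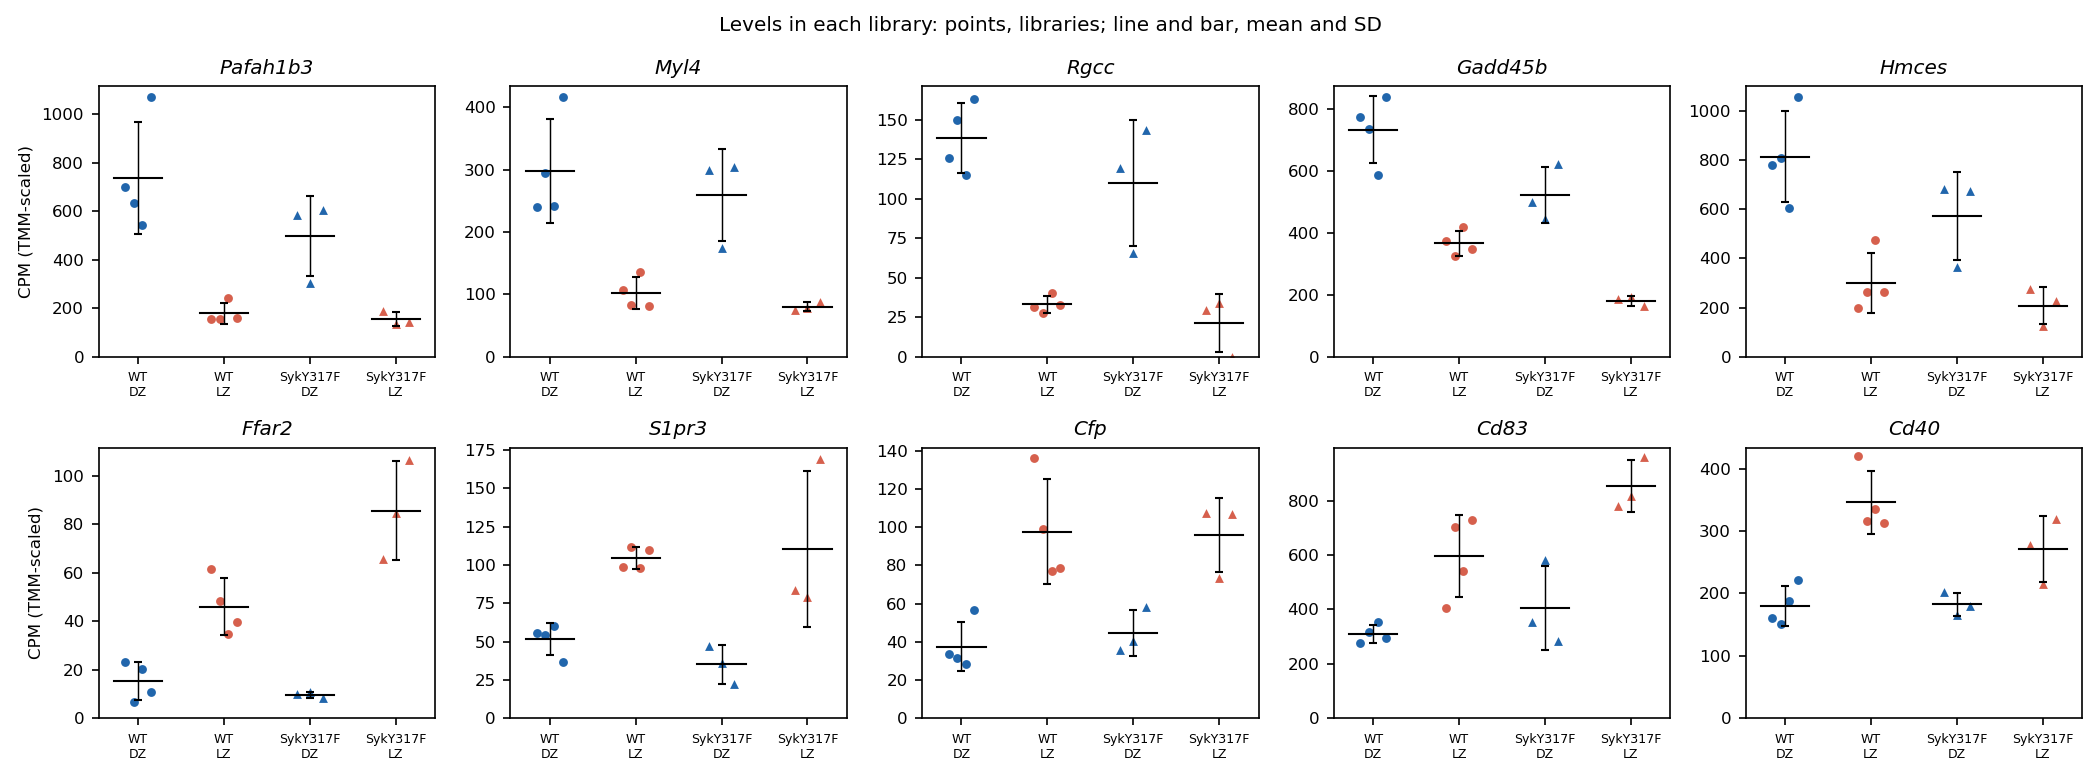
Level of 10 genes in each of the 14 libraries (CPM, linear axis from 0): blue DZ, red LZ, circles WT, triangles SykY317F; horizontal lines and bars are group mean and SD (n = 4, 4, 3 and 3). In WT and in SykY317F the LZ points of the upper row lie below, and those of the lower row above, all DZ points of the same genotype.

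Fitting each genotype on its own libraries gave contrasts that share no library and no estimate of spread. They may still share mice, since the chimeras held cells of both genotypes and the labels do not say which libraries share a mouse. Of the 772 genes with p under 0.05 in the 8 WT libraries alone, 586 (75.9%) had the same direction in the 6 SykY317F libraries alone, against 61.0% of all tested genes. Of them 156 (20.2%) also had p under 0.05 there in the same direction, against 6.38% of all tested genes in the direction of their WT effect, and 9 (1.17%) in the opposite direction, against 1.71%. Read the other way, 510 (78.8%) of the 647 genes with p under 0.05 in SykY317F had the same direction in WT, and the same 156 are 24.1% of these. The 100 genes with the smallest p in WT alone had the same direction in SykY317F in 92 cases and p under 0.05 there in 47, with 0 in the opposite direction. Genes lower in WT LZ had the same direction in SykY317F in 81.2% of 325 cases and genes higher in WT LZ in 72.0% of 447. The median effect in the direction of the selecting genotype was 0.88 in WT and 0.44 in SykY317F for the 772 genes, and 1.19 in SykY317F and 0.36 in WT for the 647. These values are over genes, which are not independent replicates, so they carry no test.

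Agreement at an unadjusted p under 0.05 was not shown for every called gene. In 17 of the 109, 1 genotype had an unadjusted p of 0.05 or more, SykY317F in 16 cases and WT in 1. Such a p does not show that the effect was absent there. Sh3bp2 (chr5:34525838-34563641), an adaptor of antigen receptor signalling, ran from 20.5 to 45.3 CPM in WT DZ and from 59.5 to 151 in WT LZ, but from 33.2 to 86.1 CPM in SykY317F DZ and from 56.5 to 102 in SykY317F LZ. Its zones were apart in WT (1.70 ± 0.34) and overlapped in SykY317F (0.46 ± 0.43, edgeR adjusted p = 0.765). The overlap came from SykY317F DZ replicate 2 alone (86.1 CPM), against SykY317F LZ replicates 1 (74.6) and 4 (56.5). Cmpk1, a nucleotide kinase outside the naming rule and chosen after its values were seen, had -1.23 ± 0.25 in WT and -0.36 ± 0.31 in SykY317F (edgeR adjusted p = 0.745). Cdc25b, a phosphatase that starts mitosis, had -1.17 ± 0.27 in WT and -0.65 ± 0.33 in SykY317F (edgeR adjusted p = 0.512).

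The difference between the zone effects of the 2 genotypes was tested directly, and it passed for no gene (0 by edgeR, and 384 or 4.8% at an unadjusted p under 0.05, a share near that due by chance). Of the 109 common genes 5 had an unadjusted p under 0.05 for the difference, 4.59% of them, which is near that background. They were Ffar2, larger in SykY317F (3.05 ± 0.46 against 1.64 ± 0.36, edgeR adjusted p = 0.999 for the difference), Ccnb2, also larger there (-2.62 ± 0.57 against -1.17 ± 0.37), Sh3bp2 and Cmpk1, both larger in WT, and 1 predicted gene. Among all genes the smallest p for the difference were those of Setd1b (0.000105, adjusted 0.535), a histone methyltransferase, Herc1, Nr3c1 and Igfbp4 in one direction and Ndufs4, E2f3, Cks2 and Atp2a3 in the other. Nr3c1, the glucocorticoid receptor, and Gadd45g were the only genes that passed within 1 genotype and not in the common comparison. Gadd45g had a log2 fold change of 1.71 ± 0.33 in WT and 0.25 ± 0.40 in SykY317F, and Nr3c1 -0.11 ± 0.22 and -1.93 ± 0.35. Few molecules underlie the SykY317F LZ side of Setd1b, Herc1, Nr3c1 and Igfbp4. In replicates 1, 2 and 4 of that group Setd1b had 3, 0 and 0 UMIs and Herc1 6, 1 and 3. Nr3c1 had 9, 3 and 3 UMIs there, and Igfbp4 had 0 in each.

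In the table of fold changes and adjusted p-values that the authors deposited, all 109 genes had the same direction in both of the authors' zone comparisons. So had 4882 of all 7999 tested genes. Those comparisons rest on libraries of this same series, so the match is no separate support. Of the 109 genes, that table called 62 in WT and 17 in SykY317F, against 78 and 22 of all 7999 tested genes. The authors' deposited table called 12 genes in both genotypes, and all 12 were among the 109.

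Lists of genes with a known role were read in the common comparison and in each genotype. The lists were chosen with earlier results of these data known. They are described by counts and medians, beside 3841 higher and 4158 lower genes and a median of -0.02 over all tested genes. Of all 7999 tested genes 2250 were higher and 2651 lower in both genotypes. The light zone programme (activation, survival and T cell help genes) had 29 of 30 tested members higher in LZ, 5 of them called (Cd72, Cd83, Cd40, Swap70 and Nfkb2), with a median of 0.69. Of the 30, 21 were higher in both genotypes, 9 had opposite directions, and the medians were 0.76 in WT and 0.33 in SykY317F. Swap70 (chr7:110221711-110283506), which B cells use in migration and adhesion, was at 69.1 to 130 CPM in DZ and 145 to 232 CPM in LZ, without overlap (0.83 ± 0.17). Cd44 was the only member on the lower side. Cd86 was at 17.0 to 106 CPM in DZ and 62.1 to 201 CPM in LZ, and its log2 fold change of 0.82 ± 0.40 did not pass (edgeR adjusted p = 0.398).

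The NF-kB and CD40 pathway list had 16 of 20 members higher (median 0.28, 0.44 in WT and 0.18 in SykY317F) and 2 called, Cd40 and Nfkb2, which also belong to the light zone programme. Nfkb2 encodes the p100 precursor that CD40 signals cause to be processed. It ran from 148 to 218 CPM in DZ and from 215 to 434 CPM in LZ, with a log2 fold change of 0.77 ± 0.18 (edgeR adjusted p = 0.031). Its call ended in 13 of 26 alternatives, and Nfkb2 overlaps Psd on the other strand. Relb, the partner of the processed protein, had 0.66 ± 0.19 (adjusted p = 0.105). Nfkb2 is known as a target of NF-kB itself. The 250 bases before 1 of the 3 Nfkb2 starts in RefSeq's table (GRCm38.p6, plus strand, chr19:46304487-46304736) are therefore shown. Matches to the NF-kB motif (GGGA and CC with any 4 bases between), searched on both strands, are in capitals. This start was chosen because no other Nfkb2 start had more matches, and the others are not shown.
Nfkb2: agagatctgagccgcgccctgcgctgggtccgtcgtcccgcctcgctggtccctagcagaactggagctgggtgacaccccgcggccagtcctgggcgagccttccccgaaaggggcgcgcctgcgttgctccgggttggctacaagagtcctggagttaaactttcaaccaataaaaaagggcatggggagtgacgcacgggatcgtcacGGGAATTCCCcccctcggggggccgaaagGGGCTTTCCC
The matches begin 39 and 10 bases before the start, the former on both strands. The motif was found in 12 of 36 genes higher in LZ with a promoter in the table (33.3%), 12 of 42 lower ones (28.6%) and 25.8% of all tested genes, and in 17.6% of all promoters of that table. A gene counted if the 250 bases before any of its starts held the motif. The 36 higher genes had 52 promoters, the 42 lower ones 51, and the 6228 tested genes with a promoter 7910. The chance of a match per gene therefore differed between the sets.

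MHC class II presentation genes had 13 of 15 members higher (median 0.38), 11 in both genotypes, with medians of 0.35 in WT and 0.46 in SykY317F, and 2 were called. Ifi30 (chr8:70762774-70766663), a thiol reductase of antigen processing, was at 593 to 1150 CPM in DZ and 1159 to 2161 CPM in LZ (0.80 ± 0.18, edgeR adjusted p = 0.0224). Its zones did not overlap in either genotype. H2-DMb2 (chr17:34143307-34151555), a chain of the peptide-loading molecule, was at 11.6 to 22.9 CPM in DZ and 19.2 to 102 CPM in LZ (1.32 ± 0.31, adjusted p = 0.0299). Ciita, the transactivator of these genes, had 0.63 ± 0.19 (adjusted p = 0.12) and H2-Oa 0.53 ± 0.18 (adjusted p = 0.179). H2-DMb2 has a near-identical neighbour in H2-DMb1, so its counts are uncertain.

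Antigen receptor signalling genes were split, with 15 of 26 higher and 11 lower. The 3 that passed, Cd72 and Sh3bp2 among them, were all higher in LZ. Syk itself was at 467, 509 and 627 CPM (lowest, median and highest) in DZ and at 353, 422 and 502 CPM in LZ, and its log2 fold change of -0.34 ± 0.14 did not pass (edgeR adjusted p = 0.287). Blnk, the adaptor next to Syk, had -0.55 ± 0.17 (adjusted p = 0.122).

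The immediate early response list showed the weakest agreement of the activation lists. Its common counts were 16 of 17 higher (14 when scaled by library size only, 12 and 11 with the replicate blocks, 11 of 16 without WT LZ replicate 2) with a median of 0.38. Leaving out SykY317F DZ replicate 2 moved that median to 0.89, SykY317F LZ replicate 1 to 0.73 and WT LZ replicate 2 to 0.25. By genotype 16 were higher in WT (median 1.12) and 4 in SykY317F (median -0.25), so that 12 of 17 had opposite directions. The difference between genotypes was not tested for the list, and it passed for no member. Egr2, an early transcription factor, had 1.5 ± 0.47 in WT and -0.05 ± 0.66 in SykY317F, and Ier2 1.52 ± 0.53 and 0.05 ± 0.63. Pim1 (chr17:29490753-29496112), a survival kinase, was the member that passed, at 144 to 284 CPM in DZ and 43.9 to 146 CPM in LZ (-1.14 ± 0.22, with -1.20 ± 0.29 in WT and -1.04 ± 0.36 in SykY317F). T cell markers had the same pattern, with all 5 tested members higher in WT LZ (median 2.34) and all 5 lower in SykY317F LZ (median -0.86). Myeloid markers had medians of -0.14 in WT and -2.32 in SykY317F, Apoe being by far the most abundant. The SykY317F values rest on few molecules in LZ. The tested T cell markers had 0 to 8 UMIs in each SykY317F LZ library, except Lat with 5 to 15. The tested myeloid markers other than Apoe had 0 to 11 UMIs there. None of these markers was called by edgeR (2 myeloid and no T cell markers had an unadjusted p under 0.05), and DESeq2's Wald test called 1 myeloid marker lower. Their part in the early response values was not tested.

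G2 and mitosis genes had 34 of 35 members lower in LZ (median -0.37, or -0.32 in WT and -0.82 in SykY317F), 25 of them in both genotypes, and 6 were called: Cdc20, Cenpa, Mad2l1, Cdc25b, Ube2c and Ccnb2. Cdc20 (chr4:118432901-118437352), which activates the anaphase-promoting complex, was at 58.5, 104 and 123 CPM in DZ and at 11.3, 42.7 and 71.0 CPM in LZ (-1.27 ± 0.23, edgeR adjusted p = 0.00539). Only WT LZ replicate 3 (71.0 CPM) reached into the DZ range. Cenpa (chr5:30666777-30674830), the centromeric histone, was at 186 to 295 CPM in DZ and 94.1 to 198 CPM in LZ (-0.88 ± 0.17), and Mad2l1, of the spindle checkpoint, at 55.2 to 109 and 8.95 to 61.4 CPM (-1.34 ± 0.28). Without both libraries with the fewest UMIs 29 of 35 were lower and 3 called, and without all 4 of low yield 26 were lower and 0 called. Without WT LZ replicate 3 the median was -0.60.

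Ube2c, the ubiquitin-conjugating enzyme of the same complex, and Ccnb2, a mitotic cyclin, were named as called members after their values were seen. Ube2c was at 126 to 229 CPM in DZ and 39.5 to 182 CPM in LZ (-1.14 ± 0.25), and Ccnb2 at 102 to 213 and 0 to 134 CPM (-1.59 ± 0.34). Both were apart in SykY317F and overlapped in WT, where WT LZ replicate 3 (182 CPM of Ube2c, 134 of Ccnb2) was the highest LZ library. Promoters of mitotic genes are known for CCAAT boxes, bound by NF-Y, and for the cell cycle homology region TTTGAA. The 250 bases before the start of 3 members that fell together are given from RefSeq's table (GRCm38.p6), with CCAAT and TTTGAA on either strand in capitals: Cdc20 on the minus strand (chr4:118437344-118437593), Ube2c on the plus strand (chr2:164769679-164769928) and Ccnb2 on the minus strand (chr9:70421555-70421804).
Cdc20: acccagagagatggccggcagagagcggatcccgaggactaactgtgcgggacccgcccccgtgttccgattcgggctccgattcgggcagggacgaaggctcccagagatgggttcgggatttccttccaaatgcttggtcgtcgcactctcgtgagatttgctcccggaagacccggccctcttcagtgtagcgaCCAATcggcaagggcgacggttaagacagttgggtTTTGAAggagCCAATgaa
Ube2c: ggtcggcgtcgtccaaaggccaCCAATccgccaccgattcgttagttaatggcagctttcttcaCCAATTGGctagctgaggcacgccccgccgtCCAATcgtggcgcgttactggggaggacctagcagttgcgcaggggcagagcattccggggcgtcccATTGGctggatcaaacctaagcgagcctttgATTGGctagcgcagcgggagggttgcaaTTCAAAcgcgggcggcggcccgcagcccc
Ccnb2: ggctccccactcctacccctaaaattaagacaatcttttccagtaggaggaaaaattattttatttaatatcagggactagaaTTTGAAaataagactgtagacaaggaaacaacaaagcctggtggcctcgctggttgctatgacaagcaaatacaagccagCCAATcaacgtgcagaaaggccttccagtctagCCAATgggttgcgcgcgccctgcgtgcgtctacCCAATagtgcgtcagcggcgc
CCAAT occurred 2 times in Cdc20, 6 times in Ube2c, where 1 pair on opposite strands overlaps, and 3 times in Ccnb2, and TTTGAA once in each. Of the 29 G2 and mitosis genes with a promoter in the table, 23 (79.3%) held CCAAT and 11 (37.9%) TTTGAA, against 41.0% and 12.4% of all tested genes and 33.8% and 16% of all promoters there. Among genes lower in LZ as a whole CCAAT was in 38.1% and among those higher in 50.0%. A gene again counted if any of its starts had a match, and the 29 genes had 30 promoters. Cdc20 overlaps Elovl1 and Ube2c overlaps Tnnc2 on the other strand.

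S phase genes had 24 of 33 members lower (median -0.20, or -0.16 in WT and -0.36 in SykY317F), 20 of them in both genotypes. By edgeR 0 were called and 4 had an unadjusted p under 0.05, as had 13.5% of all tested genes. The median was -0.33 without WT LZ replicate 3 and -0.07 without WT DZ replicate 5, and without both libraries with the fewest UMIs 21 were lower and 14 higher. Rfc4, a subunit of the clamp loader, came nearest (-1.02 ± 0.26, adjusted p = 0.0509), and it passed in DESeq2's Wald test (adjusted p = 0.0184) and in limma voom (0.0273). Oxidative phosphorylation had 46 of 58 members lower (52 when scaled by library size only) at a small median of -0.22, 0 called by edgeR and 13 at an unadjusted p under 0.05. Its median was -0.31 in WT and -0.08 in SykY317F, and 31 members were lower in both. Sdhb, a subunit of complex II, had -0.55 ± 0.14 (adjusted p = 0.0544, and 0.000172 by DESeq2's Wald test).

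The dark zone programme had 15 of 17 members lower (median -0.27, or -0.57 in WT and -0.14 in SykY317F), 10 of them in both genotypes, and 3 were called, Hmces and Gcsam among them. Without WT LZ replicate 3 the median was -0.42 and without SykY317F LZ replicate 2 it was -0.40. Gcsam (chr16:45610380-45622867), an adaptor that restrains migration of germinal centre B cells, was at 102, 127 and 258 CPM in DZ and at 20.9, 46.1 and 81.5 CPM in LZ, with no overlap (-1.82 ± 0.30, edgeR adjusted p = 0.00414). Cxcr4 was at 139 to 337 CPM in DZ and 93.5 to 485 CPM in LZ, so that its RNA did not separate the zones (-0.26 ± 0.24, adjusted p = 0.69), with -0.62 ± 0.30 in WT and 0.23 ± 0.35 in SykY317F. Of the abasic site and mismatch repair list, 3 of 16 were called, Hmces and Msh3 among them, all lower, and the other 13 were 7 higher and 6 lower. Msh3, which recognises mismatched loops and overlaps another coding gene, fell by 1.16 ± 0.28.

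Germinal centre identity genes were lower only in part, with 13 of 20 lower (median -0.08). Bcl6 (chr16:23965052-23988852), the repressor that defines germinal centre B cells, fell from 216 to 477 CPM in DZ to 96.0 to 288 CPM in LZ (-0.73 ± 0.18, edgeR adjusted p = 0.0379), with -0.58 ± 0.22 within WT and -0.96 ± 0.29 within SykY317F. Pou2af1 was at 574, 961 and 1016 CPM in DZ and at 254, 376 and 576 CPM in LZ (-1.03 ± 0.20, adjusted p = 0.00843). With Gcsam these were 3 of the 4 called members, while 16 members were lower in WT and 8 in SykY317F, with medians of -0.40 and 0.18. Of the plasma cell list 1 of 8 was called, Mzb1, a chaperone of antibody secretion, at -0.77 ± 0.18.

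Naive and memory B cell genes had 13 of 16 members higher in LZ (11 when scaled by library size only, 9 without WT DZ replicate 5 or WT LZ replicate 5), with a median of 0.36, 0.61 in WT and 0.19 in SykY317F. Without WT LZ replicate 2 the median was 0.21, and without WT LZ replicate 1 no member was called. The 2 called members were Ccr6 (chr17:8236043-8257141), a chemokine receptor, at 33.9, 71.1 and 137 CPM in DZ and 59.5, 210 and 244 CPM in LZ (1.42 ± 0.29, edgeR adjusted p = 0.0158), and Fcer2a (chr8:3681737-3694175), the low-affinity IgE receptor CD23, at 361 to 813 and 645 to 1394 CPM (0.76 ± 0.18, adjusted p = 0.0294). Ccr6 was low in a single LZ library, WT LZ replicate 3 at 59.5 CPM. Glycolysis genes (9 tested) and apoptosis regulators (15 tested) had 0 called members by edgeR. At an unadjusted p under 0.05 they had 1 and 2, against 13.5% of all tested genes.

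**Figure D4:**
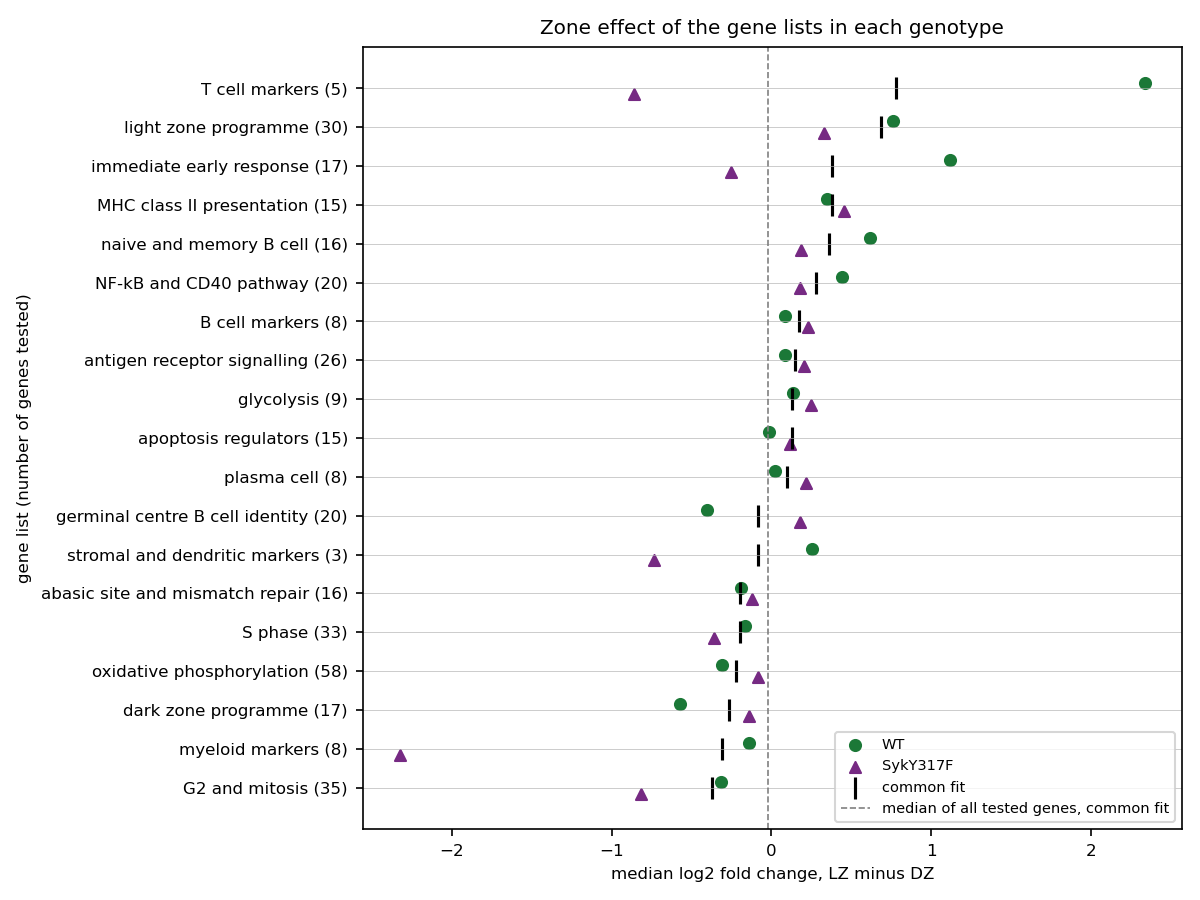
Median log2 fold change (LZ minus DZ) of each gene list in WT (green circles), in SykY317F (purple triangles) and in the common comparison (black ticks), with the number of genes tested; the dashed line is the median of all tested genes. The light zone programme and MHC class II lie right and G2 and mitosis left of the line in both genotypes, while the immediate early response and T cell markers lie on opposite sides.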

How the data were processed

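Per the labels' protocols, RNA of sorted cells was captured on oligo(dT) beads and made into libraries by a variation of MARS-seq. STAR 2.4.2a, cutadapt, HTSeq, DESeq and DESeq2, and the build mm10, are listed in the submitters' processing notes, without role or order. The authors deposited UMI counts and read counts per gene symbol, not normalized, and per the file headers the log2 fold changes and adjusted p-values of their own zone comparisons. Of the deposited columns of per-sample values 28 were not used.

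UMI counts of 9969 genes were filtered with edgeR's filterByExpr (7999 kept, holding 99.3% of UMIs), scaled by TMM and fitted by edgeR 4.0.16 in R 4.3.3 with the robust quasi-likelihood test on genotype and zone. A model of 4 groups gave the zone effect within each genotype, their difference and the larger of the 2 p-values as a test of agreement. SE is the log2 fold change over the square root of F, and the biological coefficient of variation was 32.2%. Depth ran from 149641 to 1767898 UMIs, and intervals and floors cover counting error only. The scripts were tested on simulated data. Alternatives included limma 3.58.1 (voom), DESeq2 1.42.0, other scalings and filters, a block on the labelled replicate number, read counts, thinning to the smallest UMI total and leaving out libraries. Same-numbered libraries were not taken as pairs. Positions and overlaps came from GENCODE vM21, and promoters and older symbols from RefSeq (GRCm38.p6). Of 167 symbols looked up 166 matched once, 7 by an older symbol.

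The members and lists were chosen with earlier results of these data known. Genes were named by rule: the 15 smallest p in each direction of the common comparison, the 5 smallest agreement p and 4 smallest difference p in each direction, up to 4 members of each list with the smallest p, and Syk, Cxcr4, Cd83, Cd86 and the Gadd45 family. Predicted genes were counted but not named. Genes named outside the rule were chosen after their values were seen: Cmpk1, Ube2c, Ccnb2, Cd44 and Apoe. Some genes that the rule names are not reported here.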

Additional observations from a re-analysis of the deposited data

Results flagged for a closer look

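In 9 of 140 groups of 4 WT libraries examined for the genes named above, 1 library stood apart from the others by Dixon's test for the highest or lowest value. Chance flags about 1 in 20 groups, which is 7 here. The SykY317F groups, with 3 libraries each, were not tested. WT LZ replicate 3, which was also the LZ library nearest to DZ for more of the 109 genes than any other, was high for Cdc20 (71.0 CPM, the nearest at 44.5) and Pafah1b3 (242 CPM, the nearest at 161), toward the DZ level in both cases. WT DZ replicate 2 was low for the DZ genes Ccnb2 (102 CPM against 198) and Pou2af1 (667 against 961) and high for Runx3 (49.2 against 27.0). WT DZ replicate 4 was high for Cd72 (357 CPM against 292), WT DZ replicate 5 high for Mzb1 (2173 against 1561), WT DZ replicate 3 low for Gadd45g (24.6 against 41.4) and WT LZ replicate 2 high for Ryr1 (84.0 against 36.5).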

How the results depend on the processing

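All 109 genes kept their direction in the 26 alternatives wherever they were tested, while the number of calls moved. Against 48 higher and 61 lower genes, DESeq2's Wald test gave 123 and 119, limma voom 163 and 137, read counts 5 and 15, thinning to the smallest UMI total 29 and 35 (median of 5 draws), removal of both shallowest libraries 27 and 38, and leaving out the 4 libraries of low UMI yield 0 and 4. Leaving out 1 library gave 23 to 72 higher and 31 to 75 lower. The 92 genes with p under 0.05 in both genotypes became 167 with DESeq2, 173 with voom, 20 with read counts, 41 without both libraries with the fewest UMIs, 58 with thinning and 54 to 123 without 1 library. The test by the larger p called 3 genes with scaling by library size only, 5 with DESeq2, 1 with thinning and 0 to 2 without 1 library (2 without SykY317F DZ replicate 2). Within WT, 15 calls became 84 with DESeq2, 6 in a fit of WT alone and 1 to 26 without 1 library (7, 1 and 26 without WT LZ replicates 1, 2 and 3, 6 without WT DZ replicate 3, 9 without SykY317F LZ replicate 1 or 2). Within SykY317F, 3 became 39 with DESeq2, 1 in a fit of SykY317F alone and 0 to 10 without 1 library (0 without SykY317F DZ replicate 1 or 4 or LZ replicate 2, 1 without LZ replicate 1, 5 without LZ replicate 4, 10 without DZ replicate 2, 8 without WT DZ replicate 5). The difference between genotypes stayed at 0 without any 1 library. The cause of these moves was not tested, other than that fewer libraries or UMIs entered some fits. The labelled replicate numbers were not taken as pairs: of 14 same-numbered pairs 8 correlated above 0.1 (range -0.56 to 0.31, median 0.12, against a median of -0.04 for other pairs), and 2 of 14 libraries correlated best with their own number. With the number as a replicate block there were 41 higher and 56 lower genes, 1 call within SykY317F and 14 within WT, and with a replicate block within genotype 11 and 31. Of the 50 called genes examined singly, Pafah1b3, Rgcc and Scn11a passed in all 26 alternatives, and Bcl6, Msh3, Sh3bp2, Nfkb2, H2-DMb2, Mzb1, Cmpk1, Fcer2a, Ccnb2 and Ube2c lost their call in 9 to 15. Some genes that did not pass in edgeR did so elsewhere: Relb (adjusted p = 0.0329 and 0.0253) and Blnk (0.0264 and 0.0419) with DESeq2 and voom, Ciita with DESeq2 (0.0456), H2-Oa with voom (0.0107) and without WT DZ replicate 5 (0.0359), and Nr3c1 with equal weight for both genotypes (0.0166). The shallow SykY317F LZ libraries limit what can be seen of weakly expressed genes there.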
